A study of Mus musculus with 2 samples.

Results

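Integrins are the receptors by which cells hold on to the matrix around them, and focal adhesion adaptors are the proteins that tie their inner tails to the cytoskeleton. The genes described are 35, made up of 13 integrin alpha subunits, 8 integrin beta subunits and 14 adaptors, out of 42392 gene IDs in the deposited table. They were picked out of the table by symbol, from a list chosen with earlier results of these data known, and each was found on 1 gene ID. Their levels are those of 1 RNA-seq library of hair follicle stem cells, the long-lived cells of the follicle bulge, taken in anagen II-III, the early growth phase of the hair cycle. The library came from skin of female K15-CrePGR; Shh+/- mice that had received RU486 for 8 days. The transgene uses a keratin 15 promoter to express a Cre that works only when RU486 binds its progesterone receptor part, and Shh+/- leaves 1 functional copy of Shh. The title calls the sample a control. A telogen sample of the same genotype and treatment belongs to the series and was not analysed here, because no column name of the table fits it alone. Whether cells of several animals were pooled is not stated in the labels.

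Each integrin is a pair of an alpha and a beta chain, and the pair decides which matrix protein is bound. In basal epithelium, alpha3-beta1 and alpha6-beta4 bind the laminins of the basement membrane. The alpha6-beta4 pair sits in hemidesmosomes, where plakins couple it to keratin filaments, while beta1 pairs sit in focal adhesions, where talin and vinculin couple them to actin. Talins and kindlins bind the beta tail and switch the receptor to its active form. Integrin-linked kinase, PINCH and parvin form the IPP complex, and focal adhesion kinase, paxillin and p130Cas carry signals onward. The bulge is known for strong alpha6 on its surface, and the cells here were sorted for it, so that the level of Itga6 is not independent of how the cells were chosen.

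Values are TPM, a share of all transcripts in the library. They are divided by transcript length, not by the genomic span of the gene, and can be compared between genes. With no replicate, errors could not be estimated and nothing was tested. The read depth behind the values is unknown. All 10 bulge and basal markers listed were above 10 TPM, among them Krt15 at 3364 TPM and Cd34 at 132 TPM. The cells were also sorted as positive for CD34, so the level of Cd34 is not independent of that sort. Of markers of other cells, all 8 fibroblast genes reached 1 TPM, 5 of 8 endothelial genes, 6 of 8 leukocyte genes, 2 of 7 platelet genes, 3 of 6 smooth muscle genes, 1 of 6 skeletal muscle genes, 5 of 6 melanocyte genes and 4 of 6 Schwann cell genes. Of nuclear protein-coding genes at large, 56.1% reached 1 TPM and 31.9% reached 10 TPM. The fibroblast, leukocyte and melanocyte counts lie above that share at 1 TPM. The endothelial, smooth muscle and Schwann cell counts lie near it, and the platelet and skeletal muscle counts lie below it. The fibroblast genes ranged from 1.44 to 287 TPM. Of the smooth muscle genes, Acta2 and Tagln stood at 254 and 285 TPM, and 3 were below 1 TPM. Genes of the mitochondrial genome held 18.8% of all TPM. In a bulk library, fewer cells that express a gene and less of its RNA per cell cannot be told apart.

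The anagen library carried a narrow set of integrins at high levels and every listed adaptor. Of the 35 genes, 27 were at 1 TPM or more, where 56.1% of 20734 nuclear protein-coding genes were. At 10 TPM or more there were 21, against 31.9% of protein-coding genes, and at 50 TPM or more there were 8, against 8.00%. The median was 18.9 TPM over the 35 and 2.45 TPM over protein-coding genes, and the mean of log2(TPM + 1) was 3.83, against 2.25 over protein-coding genes. Among the 27 at 1 TPM or more the median was 32.1 TPM, higher than 76.6% of protein-coding genes at that level, whose median was 12.5 TPM. Itga2 at 1.43 TPM was the lowest of the 27, and Itga8 at 0.929 TPM was the highest of the others.

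Of protein-coding genes at large, 56.1% reached 1 TPM. Of the 13 alpha subunits, 8 reached 1 TPM, and the median of the 13 was 3.74 TPM. Of the 8 beta subunits 5 did, and their median was 13.8 TPM. All 14 adaptors did, their median was 32.4 TPM, and Tln2 alone of them was under 10 TPM. The 8 genes below 1 TPM were thus all integrins, namely Itga4, Itga8, Itga9, Itga10, Itga11, Itgb2, Itgb3 and Itgb7. The 8 highest genes, Zyx, Itgb1, Ilk, Itga6, Pxn, Dst, Itga3 and Itgb4, held 68.0% of the summed TPM of the 35. All 35 together made up 0.123% of the library's TPM.

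**Figure D1:**
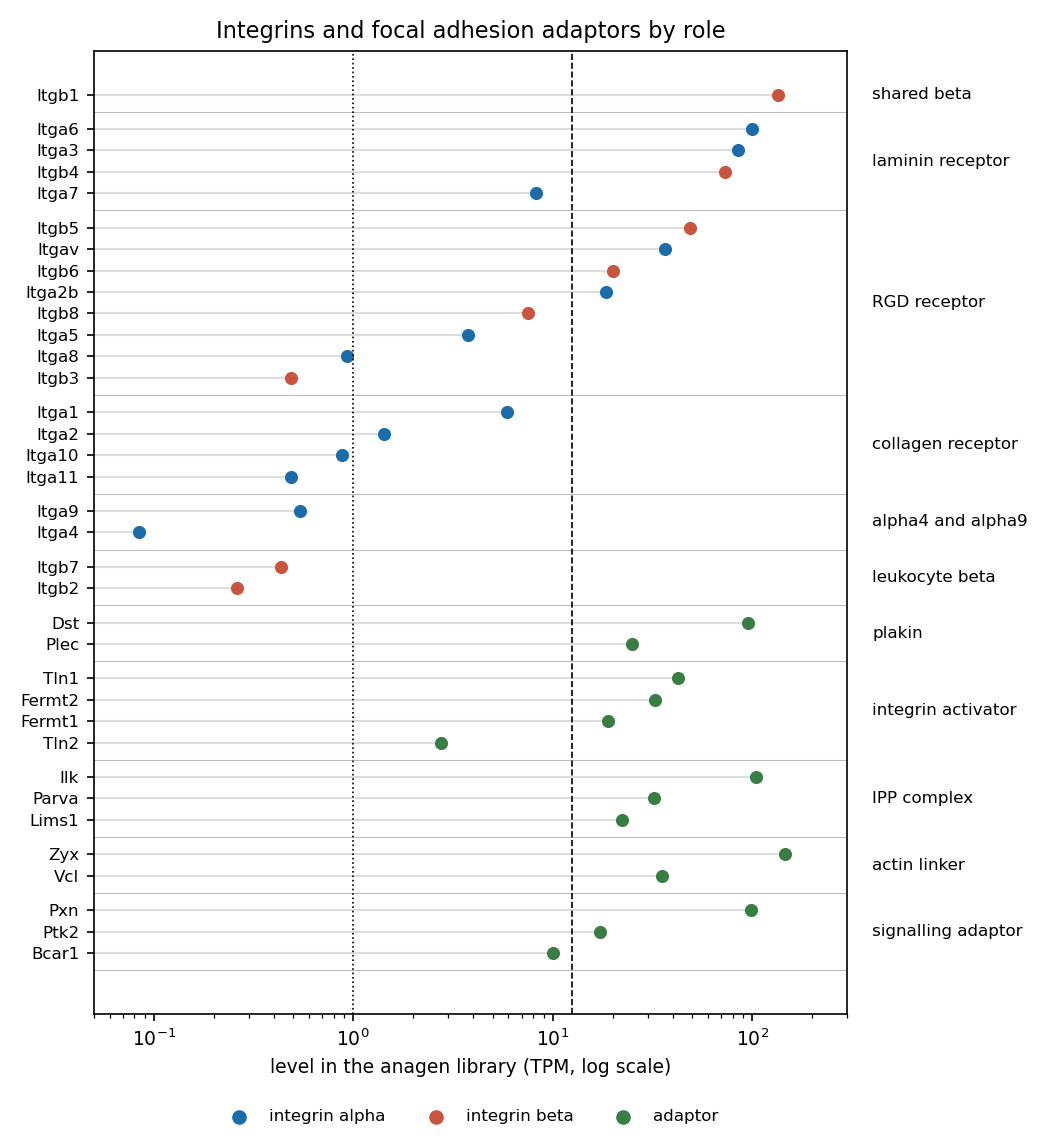
Level of each of the 35 genes in the anagen library in TPM on a log axis, grouped by role, with 1 point per gene coloured by class. The dotted line is 1 TPM and the dashed line is 12.5 TPM, the median of protein-coding genes at 1 TPM or more. Laminin receptor genes and adaptors lie mostly to the right of the dashed line, and the 8 genes left of the dotted line are all integrins.

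Promoter sequences are shown for the highest and the lowest beta and alpha subunit with a RefSeq window, for Zyx, the highest adaptor, and for Itga2b, whose level stands apart from that of its partner. Each is the 200 bases before a transcript start that RefSeq annotates in GRCm38.p6, written 5′ to 3′ on the gene's strand. For Zyx and Itgb7 all 200 bases, and for Itga3 130 of them, lie inside the gene's annotated span. Capitals mark CpG, the dinucleotide that carries DNA methylation and is rare outside CpG islands.
Itgb1: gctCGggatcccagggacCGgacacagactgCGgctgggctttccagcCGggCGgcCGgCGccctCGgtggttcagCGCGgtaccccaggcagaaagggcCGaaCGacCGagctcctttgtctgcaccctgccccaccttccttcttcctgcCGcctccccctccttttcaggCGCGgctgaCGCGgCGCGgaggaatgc
Itgb7: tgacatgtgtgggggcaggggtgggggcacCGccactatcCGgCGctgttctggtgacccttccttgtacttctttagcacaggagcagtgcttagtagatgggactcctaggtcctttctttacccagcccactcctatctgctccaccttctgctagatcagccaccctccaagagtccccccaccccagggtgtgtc
Itga3: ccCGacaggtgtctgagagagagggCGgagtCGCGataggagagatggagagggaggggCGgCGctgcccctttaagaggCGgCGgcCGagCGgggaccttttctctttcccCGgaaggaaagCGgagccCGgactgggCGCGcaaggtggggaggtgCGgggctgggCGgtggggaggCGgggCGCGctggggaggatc
Itga4: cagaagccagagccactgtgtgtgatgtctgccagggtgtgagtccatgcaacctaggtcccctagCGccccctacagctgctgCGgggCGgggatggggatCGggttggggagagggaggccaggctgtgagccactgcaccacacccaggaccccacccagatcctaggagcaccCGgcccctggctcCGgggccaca
Zyx: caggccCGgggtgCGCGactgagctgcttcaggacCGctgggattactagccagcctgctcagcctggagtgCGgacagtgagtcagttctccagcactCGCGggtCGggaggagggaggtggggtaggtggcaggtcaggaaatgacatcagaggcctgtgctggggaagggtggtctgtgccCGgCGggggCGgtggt
Itga2b: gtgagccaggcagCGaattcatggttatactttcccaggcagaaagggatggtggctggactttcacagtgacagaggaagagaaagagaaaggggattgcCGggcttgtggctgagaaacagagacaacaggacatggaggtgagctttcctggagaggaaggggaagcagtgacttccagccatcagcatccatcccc

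The Itgb1 stretch (chr8:128685454-128685653, plus strand) and the Itga3 stretch (chr11:95076715-95076914, minus strand) held 20 CpG each. For Itga3, RefSeq annotates another start, and the stretch shown is from the window with the higher ratio of observed to expected CpG. That ratio was 0.886, against 0.310 in the window not shown, so the Itga3 count is not independent of the choice. The Zyx stretch (chr6:42349628-42349827, plus strand) held 11. The Itga4 stretch (chr2:79255226-79255425, plus strand) held 6, the Itgb7 stretch (chr15:102231936-102232135, minus strand) 3 and the Itga2b stretch (chr11:102469884-102470083, minus strand) 2. In the stretches shown, Itgb1, Itga3 and Zyx, the 3 highest of these 6 genes, held 11 or more CpG. Itga4 and Itgb7, the 2 lowest, held 6 and 3, while Itga2b held the fewest at an intermediate level.

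With 1 window taken per gene, a like description held over the genes that had one. RefSeq gave 32 windows for 25 of the 35 genes, and composition was read over the 250 bases before each transcript start. Without a window were Itga6, Itga7, Itgb2, Itgb3, Itgb4, Tln2, Parva, Ptk2, Pxn and Plec. For each other gene the window with the highest ratio of observed to expected CpG was taken. The windows taken for Dst, Itga9, Itgav, Itgb7 and Zyx lie wholly inside the gene's annotated span. The windows left out belong to genes at 10 TPM or more. Their ratios were 0.310 in Itga3, 0.392 in Dst, 0.343 in Itgb6, 0.140 and 0.147 in Lims1, 0.784 in Bcar1 and 0.799 in Ilk. The highest ratio was 0.6 or more for 13 of the 25 genes, near the 49.4% of protein-coding genes with a window. Of these 13, 12 were at 10 TPM or more, and the median of the 13 was 36.6 TPM. Among the 12 genes below 0.6, 3 were at 10 TPM or more, with a median of 2.58 TPM. These 3 were Zyx, whose ratio of 0.598 lay just under the limit, Fermt1 and Itga2b. Itga8, with a ratio of 0.906 and 0.929 TPM, was the gene above the limit that stayed below 10 TPM. The same split is seen across the genome, since 51.8% of protein-coding genes with a ratio of 0.6 or more were at 10 TPM or more, and 13.8% of the others. The relation across genes is a description and the genes are not independent replicates.

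**Figure D2:**
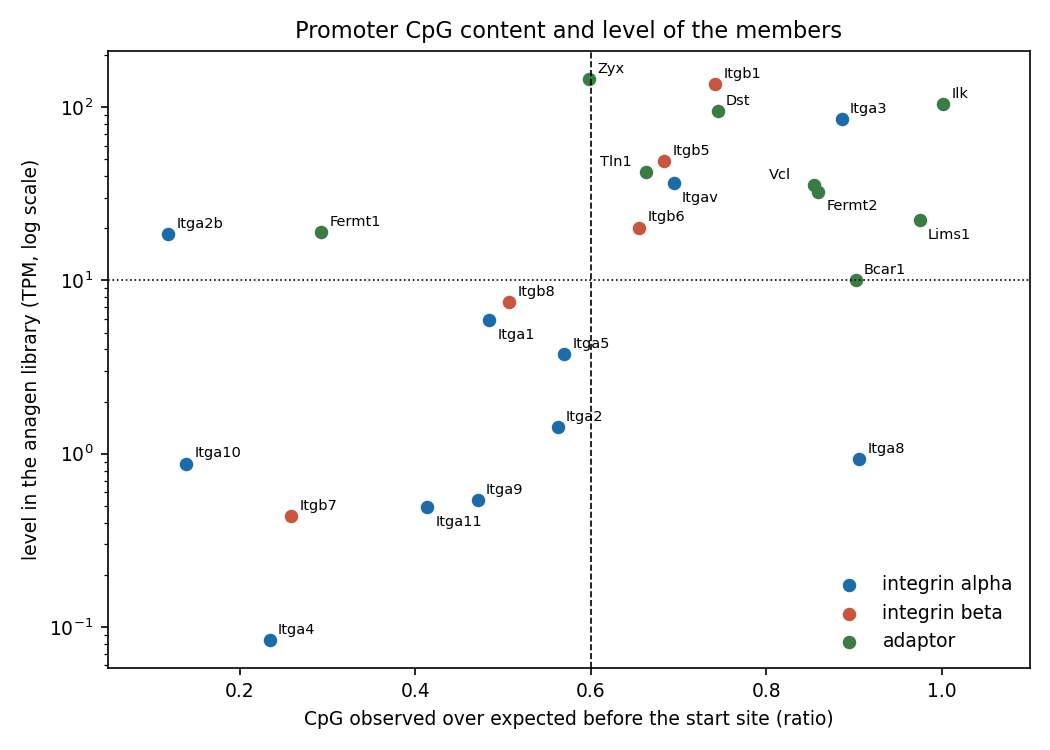
Level of 25 genes in the anagen library in TPM on a log axis against the ratio of observed to expected CpG in the 250 bases before their start site. There is 1 point per gene, coloured by class and drawn at its window with the highest ratio. The dashed line is a ratio of 0.6 and the dotted line 10 TPM. Most genes right of the dashed line lie above the dotted line, with Itga8 the exception, and Itga2b, Fermt1 and Zyx lie above it on the left.

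A few short motifs were looked up in the same 250 bases on both strands, each counted on its own whether or not it overlapped another. The GC box GGGCGG stood in 15 of the 32 windows, against 42.6% of all protein-coding windows. The TATA box TATAAA stood in 1 window, of Lims1, against 11.6%, and the AP-1 site TGANTCA in 1 window, of Zyx, against 6.13%. The TEAD site GGAATG stood in windows of Itga10, Itgb1 and Vcl, against 11.7%. The CArG box, which serum response factor binds, stood in windows of Fermt2, Itgb6 and Vcl, against 1.39%. The CArG box of Itgb6 and the TATA box of Lims1 stood only in windows not taken for the CpG comparison. A match describes the letters and is no evidence of binding.

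The laminin receptor subunits were the highest group of integrins after Itgb1. Itgb1 (ENSMUSG00000025809, chromosome 8, 128685654 to 128733579), the beta subunit shared by 12 alpha chains, stood at 135 TPM, above 97.6% of protein-coding genes. The promoter stretches of Itgb1 and Itga3 shown above held 20 CpG each. Itga6 (ENSMUSG00000027111, chromosome 2, 71786886 to 71858427) stood at 99.4 TPM and was the highest alpha subunit. Itga3 (ENSMUSG00000001507, chromosome 11, 95044475 to 95076844), the other main laminin receptor of the epidermis, stood at 85.2 TPM. These 2 alpha chains were within 1.17-fold of each other and held 70.5% of the TPM of all 13 alpha subunits. Itgb4 (ENSMUSG00000020758, chromosome 11, 115974725 to 116008412), which pairs with alpha6 alone, stood at 72.8 TPM. Itga6 was 1.37-fold above Itgb4, and Itgb1 was 1.86-fold above it. Itga7, a laminin receptor best known from muscle, was lower at 8.20 TPM, 12.1-fold below Itga6. Markers of skeletal muscle summed to 5.42 TPM over 6 genes, with Tnnc2 listed at 0, and their part in the Itga7 level was not tested.

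The laminin chains that these receptors bind were expressed in the same library. Lama3 and Lamb3, chains of epithelial laminin, stood at 29.5 and 55.5 TPM. The chains Lama5, Lamb1 and Lamc1, which make the broad basement membrane laminin, stood at 149.6, 134 and 70.5 TPM. Lama3 was thus the lowest of these 5 chains. Lamb2 stood at 42.5 TPM, and Lamc3, Lama4, Lama2 and Lama1 were low at 4.06, 2.84, 1.29 and 0.0228 TPM. In all, 9 of the 10 laminin chains listed reached 1 TPM, where 56.1% of protein-coding genes did.

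The hemidesmosome genes were all expressed, with unequal plakins. Dst, which encodes the plakin BPAG1, stood at 94.9 TPM, and Plec, which encodes plectin, at 24.9 TPM, a 3.81-fold difference. Dst is made in several isoforms in epithelium, nerve and muscle, and the gene value sums them. The tetraspanin gene Cd151, a partner of laminin-binding integrins, stood at 127 TPM, and Col17a1, the collagen of hemidesmosomes, at 398 TPM, 5.47-fold above Itgb4. Krt5 and Krt14, the keratins that hemidesmosomes anchor, were far higher at 3833 and 1464 TPM.

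Collagen receptor subunits were low beside the laminin receptors. Itga1 stood at 5.87 TPM and Itga2, the collagen receptor of keratinocytes, at 1.43 TPM. Itga10, a receptor of cartilage, was at 0.876 TPM and Itga11, of fibroblasts, at 0.490 TPM. Together the 4 summed to 8.67 TPM, and Itga3 and Itga6 together were 21.3-fold higher. Collagen chains were present all the same. Col3a1, Col1a1 and Col1a2, the fibrillar collagens of dermis, stood at 287, 278 and 237 TPM, and Col4a1 and Col4a2, of the basement membrane, at 157 and 125 TPM. Col7a1, Col6a1, Col4a5, Col6a2 and Col5a1 lay between 23.8 and 39.9 TPM, and Col4a6 at 2.75 TPM. The fibroblast markers Dcn, Vim, Fbln1, Lum and Pdgfra stood at 63.9, 60.5, 18.8, 11.8 and 1.44 TPM, and the 8 fibroblast genes, the 3 fibrillar collagens among them, summed to 959 TPM. Their part in the collagen levels was not tested.

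RGD receptors, which bind fibronectin, vitronectin and latent TGF-beta through an Arg-Gly-Asp motif, were led by alphaV and its partners. Itgav stood at 36.6 TPM and was the third highest alpha subunit. Among its partners, Itgb5 stood at 48.9 TPM, Itgb6 at 20.1 TPM, Itgb8 at 7.52 TPM and Itgb3 at 0.488 TPM. Itgb6 is the epithelial subunit that frees TGF-beta from its latent complex, and Itgb8 does so as well. The 4 partners summed to 77.1 TPM, 2.11-fold above Itgav, before counting Itgb1. Itga5, the classical fibronectin receptor, stood at 3.74 TPM, 9.78-fold below Itgav. Its ligand gene Fn1 stood at 62.2 TPM.

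Itga8 was below 1 TPM although a ligand of it was well expressed. Itga8 pairs with beta1 on smooth muscle and binds nephronectin, which bulge cells are known to lay down for the arrector pili muscle. Npnt, which encodes nephronectin, stood at 54.3 TPM, 58.5-fold above Itga8 at 0.929 TPM, and Egfl6, which encodes a related ligand, at 10.7 TPM. The smooth muscle genes Acta2 and Tagln stood at 254 and 285 TPM, while Myh11, Des, Cnn1 and Lmod1 lay between 0.361 and 1.74 TPM. The 6 genes summed to 542 TPM, and their part in the Itga8 level was not tested.

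The list of RGD and other integrin ligands, Fn1, Npnt and Egfl6 among them, varied widely. At 1 TPM or more were 16 of 27, near the 56.1% of protein-coding genes, and the median of all 27 was 10.7 TPM. Highest were Postn at 288 TPM, Ccn1 at 121 TPM, Tnc at 99.3 TPM and Mfge8 at 92.4 TPM, all secreted proteins that alphaV or other integrins bind. Tgfb1 and Tgfb3, whose latent forms are bound by the pairs of alphaV with beta6 and beta8, stood at 17.6 and 11.3 TPM, and the latent binding protein gene Ltbp1 at 12.5 TPM. Vtn, which encodes vitronectin, the main ligand of alphaV-beta5, was at 0.921 TPM. Spp1 stood at 0.246 TPM.

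**Figure D3:**
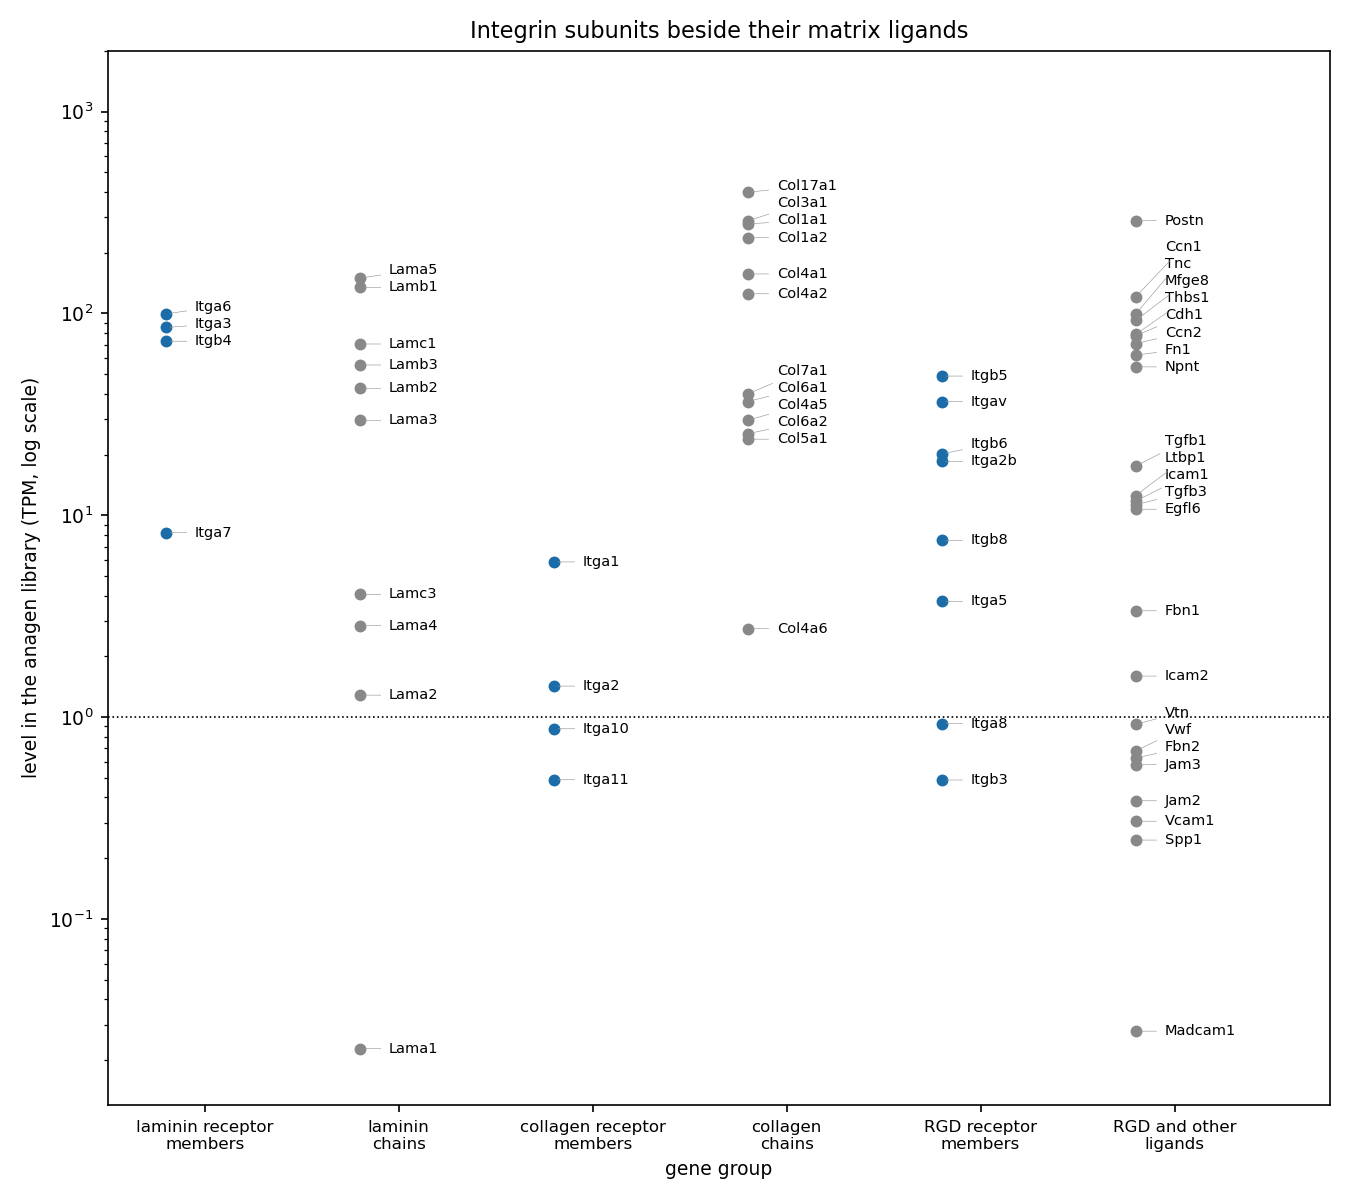
Levels in the anagen library in TPM on a log axis, with 1 point per gene. Integrin subunits are in blue, and laminin chains, collagen chains and genes of other integrin ligands are in grey to their right. The dotted line is 1 TPM, and Fga, Fgb and Fgg, listed at 0, are not drawn. The highest laminin receptor stands at 99.4 TPM beside laminin chains of up to 149.6 TPM. The highest collagen receptor stands at 5.87 TPM beside fibrillar collagens of up to 287 TPM. The collagen chain at 398 TPM is Col17a1, the collagen of hemidesmosomes.

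Itga2b stood far above its partner. Itga2b (ENSMUSG00000034664, chromosome 11, 102453297 to 102469883) encodes the alpha chain of the platelet fibrinogen receptor, which is known to pair with beta3 alone. It stood at 18.5 TPM, above 78.7% of protein-coding genes, and 37.9-fold above Itgb3 at 0.488 TPM. Of 7 platelet and megakaryocyte markers, Gp9, Treml1 and Gp6 were listed at 0, Ppbp and Gp1ba stood at 0.0196 and 0.245 TPM, and Gp1bb and Pf4 at 2.71 and 3.05 TPM. The 7 summed to 6.03 TPM, so that Itga2b was 3.07-fold above all of them together. Its promoter stretch, shown above, was among the poorest in CpG. The table lists its fibrinogen ligand genes Fga, Fgb and Fgg at 0. No annotated gene overlaps Itga2b, and its neighbours Fam171a2 and Gpatch8, 5.62 and 6.03 kb away, stood at 36.7 and 12.6 TPM.

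The leukocyte integrins were among the lowest of the integrins. Itgb2, the beta subunit of most leukocyte integrins, stood at 0.262 TPM and Itgb7, of gut-homing lymphocytes, at 0.437 TPM. The alpha chains that pair with them, outside the 35, were all under 1 TPM. Itgam was at 0.455 TPM, Itgae at 0.177 TPM, Itgal at 0.0738 TPM, Itgax at 0.0215 TPM and Itgad at 0.00423 TPM. Itga4, which binds Vcam1 and fibronectin on leukocytes, was the lowest of the 35 at 0.0844 TPM, and Itga9, a receptor of tenascin, stood at 0.541 TPM. The ligand genes Vcam1 and Madcam1 were at 0.305 and 0.0278 TPM, and Icam1 and Icam2 at 11.8 and 1.60 TPM. Ptprc, the gene of the pan-leukocyte marker CD45 that the sort excluded, stood at 0.264 TPM, and the 8 leukocyte markers summed to 36.3 TPM, led by Cd74 and Lyz2 at 13.2 and 10.02 TPM.

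Set side by side, the 24 known alpha-beta pairs of mammals fell into a few expressed receptors and many with at least 1 low chain. Of single protein-coding genes, 56.1% reached 1 TPM, 31.9% reached 10 TPM and 8.00% reached 50 TPM. Pairs share chains, with Itgb1 in 12 of the 24, so counts of pairs are not counts of independent items. Both chains were at 1 TPM or more in 11 pairs, at 10 TPM or more in 6 and at 50 TPM or more in 3. Those 3 were alpha6-beta1, alpha3-beta1 and alpha6-beta4, with lower chains at 99.4, 85.2 and 72.8 TPM. The next were the alphaV pairs with beta1, beta5 and beta6, with lower chains at 36.6, 36.6 and 20.1 TPM. Beta was the lower chain in 6 of the 24 pairs. In the other 18, all 12 pairs of Itgb1 among them, alpha was the lower chain. No alpha partner exceeded Itgb1 singly, but together the 12 summed to 243 TPM, and Itgb1 was 0.556 of that sum. That ratio was 0.654 without Itgav and 1.26 without Itgav and Itga6, which have other partners too. Summed over all listed subunits, beta chains came to 286 TPM and alpha chains to 262 TPM, a ratio of 1.09. These are RNA levels of chains and do not measure pairs on the cell surface.

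**Figure D4:**
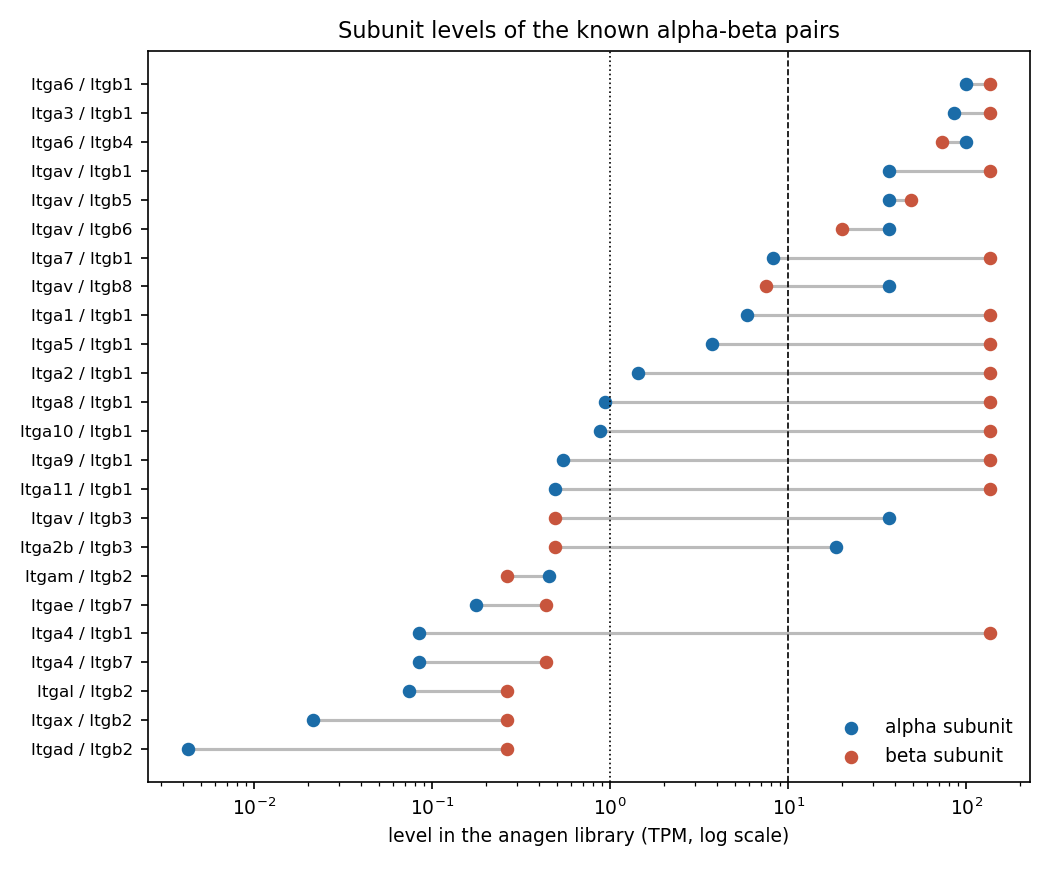
Levels of the alpha subunit in blue and the beta subunit in red in the anagen library, in TPM on a log axis, for the 24 known pairs, with a line joining the chains of a pair and pairs ordered by their lower chain. The dotted line is 1 TPM and the dashed line 10 TPM, and both chains lie right of the dashed line in the upper 6 pairs only.

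The genes that activate integrins were expressed with a clear leading paralogue for talin and a closer pair of kindlins. Tln1, the talin of most tissues, stood at 42.2 TPM, 15.3-fold above Tln2 at 2.75 TPM. Fermt2, the broadly expressed kindlin, stood at 32.6 TPM and Fermt1, the kindlin of epithelia, at 18.9 TPM, a 1.72-fold difference. Fermt3, the kindlin of blood cells, was at 0.658 TPM, 49.5-fold below Fermt2.

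In the IPP complex, 1 form of PINCH and 1 form of parvin were far above their paralogues. Ilk (ENSMUSG00000030890, chromosome 7, 105736590 to 105742925), its scaffold, stood at 104 TPM, the third highest of the 35. Lims1, which encodes PINCH, stood at 22.2 TPM, 29.7-fold above its paralogue Lims2 at 0.746 TPM. Parva, which encodes alpha-parvin, stood at 32.1 TPM, 46.6-fold above Parvb at 0.689 TPM and 53.8-fold above Parvg at 0.597 TPM. Ilk was 4.70-fold above Lims1 and 3.24-fold above Parva, so the subunits of this complex were not at equal RNA levels. Rsu1, a partner of PINCH, stood at 74.7 TPM. Ilk overlaps Rrp8 over 796 bases, 12.6% of its span, and Taf10 over 32 bases, at 19.0 and 99.95 TPM, and whether the counting used strand is not given in the sources used here.

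Of the actin linkers, Zyx was the highest of all 35 genes. Zyx (ENSMUSG00000029860, chromosome 6, 42349511 to 42360213) encodes zyxin, a LIM protein recruited to adhesions under tension, and stood at 146 TPM, above 97.8% of protein-coding genes. Its relatives Trip6 and Lpp stood at 41.5 and 11.6 TPM, 3.51-fold and 12.5-fold lower. Vcl, which encodes vinculin, stood at 35.3 TPM, 4.12-fold below Zyx. Zyx overlaps Epha1 over 1727 bases, 16.1% of its span, and Epha1 stood at 71.3 TPM, so its own value carries the same uncertainty as that of Ilk.

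Of the signalling adaptors, Pxn led its family, while Ptk2 and Bcar1 each lay below a paralogue. Pxn, which encodes paxillin, stood at 98.6 TPM, 6.84-fold above Tgfb1i1, its relative Hic-5, at 14.4 TPM, and Lpxn, the paxillin of leukocytes, was at 0.217 TPM. Ptk2, which encodes focal adhesion kinase, stood at 17.2 TPM, below its relative Ptk2b, the kinase Pyk2, at 36.5 TPM, a fold of 0.472. Bcar1, which encodes p130Cas, stood at 10.04 TPM and was the second lowest adaptor. Among its relatives, Efs stood at 47.3 TPM, 4.71-fold above Bcar1, Nedd9 at 26.4 TPM, 2.63-fold above, and Cass4 at 0.0425 TPM. Pxn was 5.73-fold above Ptk2 and 9.82-fold above Bcar1. Of the 11 listed paralogues and partners of the adaptors, 5 reached 1 TPM, where 56.1% of protein-coding genes did. The median of the 11 was 0.746 TPM.

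**Figure D5:**
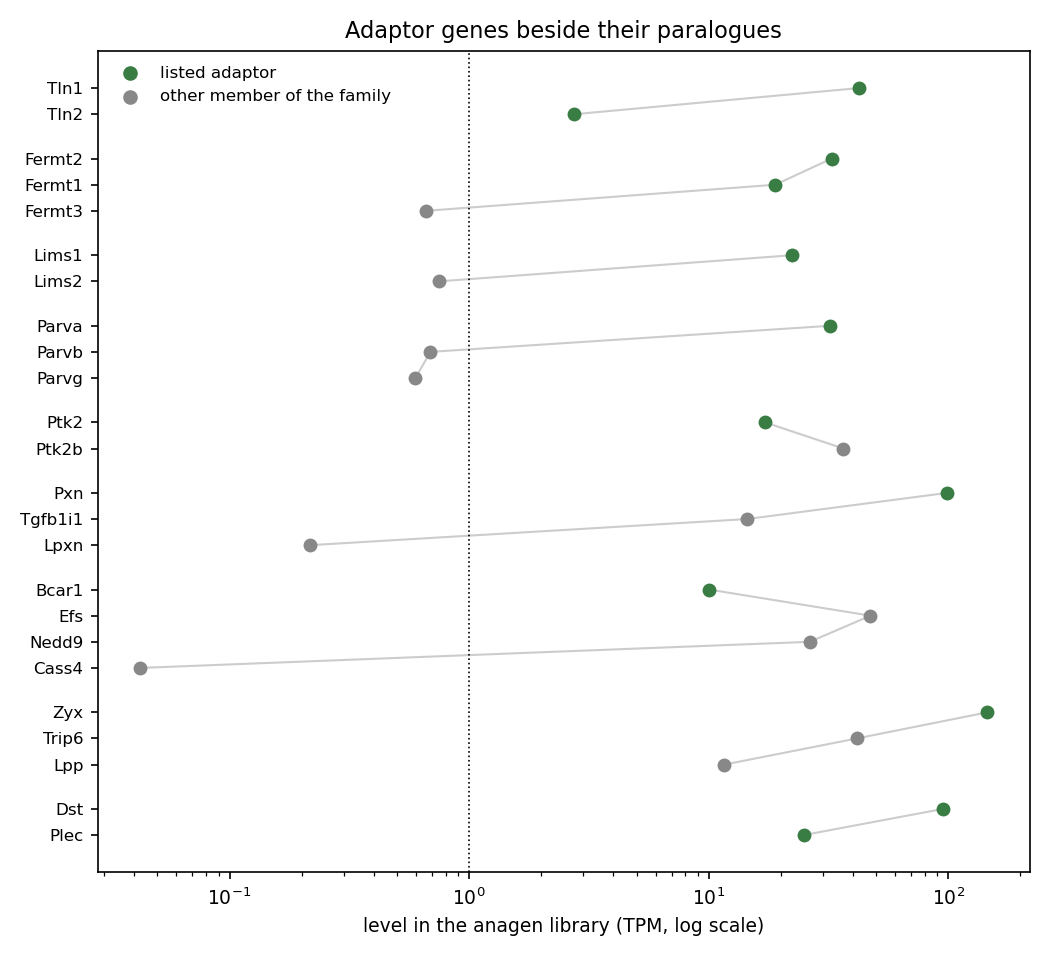
Levels in the anagen library in TPM on a log axis for 9 adaptor families, with listed adaptors in green, other genes of the family in grey and a line joining each family. The dotted line is 1 TPM. The listed adaptor leads in the talin, kindlin, PINCH, parvin, paxillin and zyxin families, and lies below Ptk2b in the focal adhesion kinase family and below Efs and Nedd9 in the Cas family.

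Members on the same chromosome stood at unlike levels in some cases and at like levels in others. Chromosome 2 carries 6 of the 35, where Itga4 at 0.0844 TPM lies between Itga6 at 99.4 TPM and Itgav at 36.6 TPM, 7397 and 4389 kb from them. Chromosome 11 carries Itga3, Itga2b, Itgb3 and Itgb4, and Itgb3 at 0.488 TPM lies between Itga2b at 18.5 TPM and Itgb4 at 72.8 TPM. The closest pair was Itga2 and Itga1 on chromosome 13, 26.0 kb apart with no annotated gene between them, at 1.43 and 5.87 TPM. On chromosome 14, Vcl and Fermt2 stood at 35.3 and 32.6 TPM, and on chromosome 15, Ptk2 and Plec at 17.2 and 24.9 TPM. Positions are those of the GRCm38.p6 annotation. In all, 8 of the 35 genes overlap another annotated protein-coding gene, Zyx and Ilk by the largest part of their span, as given above.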

How the data were processed

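RNA-seq was made from sorted hair follicle stem cells, high for integrin alpha 6 and positive for CD34, per the labels' protocols. The deposited values are TPM, per the file headers. Bowtie2 2.2.9, RSEM 1.2.30 and mm10 are named in the submitters' processing notes. For the gene annotation and the strand setting the status is "not given in the sources used here". Since TPM keeps no read depth, no interval or floor could be set.

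Of 12 columns of per-sample values, 1 was matched to the anagen sample by its number, and 11 were not used. Each gene ID was used once. Where a symbol stood on several IDs, the highest was taken. Missing symbols came from a table of gene names, which matched 41523 of 42392 IDs. Gene types, positions and promoter windows came from RefSeq, GRCm38.p6.

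The 35 genes and all lists were chosen with earlier results of these data known. All 35 are named. Of other lists, genes were named in full up to 12 genes, otherwise the 4 highest and 2 lowest, plus ligands and paralogues of members. A gene that this rule would name is not reported here. Marker lists are given by counts and beside a result. The share below a value, a set fold change and the rescaling were checked for correct arithmetic on values shuffled between genes. The pair, promoter, motif and overlap steps were not checked in this way. Python 3.11.15, pandas 2.3.3, numpy 2.4.6 and matplotlib 3.10.9 were used.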

Additional observations from a re-analysis of the deposited data

How the results depend on the processing

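No paired analysis was possible because 1 library was analysed, and for the same reason no replicate could be left out. The count of 27 genes at 1 TPM or more, where 56.1% of protein-coding genes were, was 30 at 0.5 TPM. It was 24 at 5 TPM, where 42.5% of protein-coding genes were. The share of protein-coding genes was not computed at 0.5 TPM or after rescaling. The count was 29 after rescaling to 1000000 without mitochondrial and the 50 highest genes. That rescaling raised the medians to 34.1 TPM over the 35, 6.73 over alpha, 24.9 over beta subunits and 58.2 over adaptors, and the mean log2 value to 4.52. Keeping only genes at 1 TPM or more gave medians of 32.1 over the 35, 13.3 over alpha and 48.9 over beta subunits, and a mean of 4.80. With a pseudocount of 0.1 the mean was 3.42. The share of protein-coding genes below the median was 79.2% with no filter and 70.9% at 5 TPM or more. Itgb1 over its alpha partners was 0.654 without Itgav and 1.26 without Itgav and Itga6, so which chain is in excess depends on the partners counted. Summing gene IDs changed none of the 9 results. The read depth is unknown, so its limits on these values could not be measured.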

Other observations

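Beyond the 35, other genes of focal adhesions were widely expressed in the anagen library. Of 40 listed, 39 were matched by symbol and 36 reached 1 TPM, where 56.1% of protein-coding genes did, with a median of 26.8 TPM over the 39. The highest were the actin crosslinker Flna at 364 TPM, the alpha-actinin gene Actn4 at 279 TPM, Lasp1 at 131 TPM and Vasp, which promotes actin growth, at 110.3 TPM. The muscle alpha-actinins Actn3 and Actn2 were lowest at 0.285 and 0.155 TPM.

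The listed surface partners of integrins had a higher median than the listed integrins, of which 8 were below 1 TPM. All 13 listed reached 1 TPM, where 56.1% of protein-coding genes did. Their median was 127 TPM, against 5.87 TPM over the 21 integrins of the list. Over the 13 integrins at 1 TPM or more the median was 20.1 TPM. Sdc1, a heparan sulphate proteoglycan, stood at 713 TPM, the tetraspanin gene Cd9 at 510.4 TPM, Slc3a2, whose protein binds beta1 tails, at 279 TPM and Bsg at 252 TPM. The lowest were Tspan4 at 14.0 TPM and Plaur, the urokinase receptor gene, at 3.42 TPM.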
